A study of Mus musculus with 6 samples.

Results

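The electron transport chain of the mitochondrial inner membrane is built from proteins encoded in 2 genomes, and the genes described here are 47 that lie in the nucleus and encode subunits of its first 3 complexes. They comprise 34 subunit genes of complex I (NADH:ubiquinone oxidoreductase), all 4 of complex II (succinate dehydrogenase) and 9 of complex III (ubiquinol:cytochrome *c* oxidoreductase). They were selected by a list of symbols, written with earlier results of these data known, from the 54532 genes of the count table. Each of the 47 symbols was found on 1 row, and all 47 genes passed the filter on low counts, which left 19372 genes for testing.

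Complexes I and II pass electrons from NADH and from succinate to ubiquinone, and complex III passes them on to cytochrome *c*. Complexes I and III also pump protons, which complex II does not. In complex I the electrons run through flavin and iron-sulfur cofactors held by a small set of core subunits in the arm that reaches into the matrix, while a membrane arm moves the protons. The membrane arm is built around core subunits encoded by mitochondrial DNA. Most of the nuclear genes encode supernumerary subunits, which surround the core and serve assembly and stability. Complex II has no subunit encoded by mitochondrial DNA, and complex III has 1, cytochrome *b*. The adult heart relies on this chain for most of its ATP, and the embryonic heart before mid-gestation draws more on glycolysis.

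RNA was measured in mouse hearts at E9.5, in 3 hearts with both copies of *Smyd1* mutated (*Smyd1-KO*) and 3 wild-type (WT) hearts, to ask which transcripts differ when SMYD1, a muscle lysine methyltransferase, is lost. The *Smyd1* allele was obtained as heterozygous mice of a Jackson Laboratory strain, embryos of both sexes were used, and neither a Cre driver nor any treatment was involved, so the allele is mutated in every cell of the embryo. Each library is labelled as heart RNA and is treated here as 1 heart. Heart tissue holds cardiomyocytes together with endocardial, epicardial and blood cells. In such bulk RNA, fewer cells of a type and less RNA per cell cannot be told apart.

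Between 48627825 and 64217529 counts were assigned to genes in a heart. The smallest count behind any value of the 47 genes was 307, so counting error is small beside the scatter between hearts, whose biological coefficient of variation was 22.5%. Expression is given as CPM, the counts of a gene relative to the depth of its library, scaled with the TMM factors of edgeR. *Smyd1* itself stood at 101, 222 and 206 CPM in *Smyd1-KO* hearts 1 to 3, against 414, 379 and 270 CPM in WT hearts 1 to 3. All 3 *Smyd1-KO* hearts lay below all 3 WT hearts, although the difference did not pass the test (log2 fold change -1.01, edgeR adjusted *P*=0.0973). Markers of the labelled tissue were present in every heart. Summed over 11 cardiomyocyte markers, the level was 8926, 18470 and 18580 CPM in the *Smyd1-KO* hearts against 19650, 18520 and 11860 CPM in the WT hearts. *Smyd1-KO* heart 1 and WT heart 3 thus stood below the other 4, and none of the 11 markers was called different between the genotypes by edgeR (2 had an unadjusted *P* under 0.05, and DESeq2 called 1). These 2 went in opposite directions. *Nppa*, the one DESeq2 called, was higher in *Smyd1-KO* hearts (log2 fold change 1.44). *Myh6* was lower (-0.71), with every *Smyd1-KO* heart below every WT heart. *Smyd1-KO* heart 1 also had the highest sum over the 3 of 4 neural markers that passed the filter, 118.2 CPM against 9.355 to 36.35 CPM in the other 5. *Sox1*, the neural marker that did not pass, held 1453 counts in *Smyd1-KO* heart 1. It held 12 and 6 counts in *Smyd1-KO* hearts 2 and 3, and 2, 3 and 3 in WT hearts 1 to 3. Red blood cell markers were lower in *Smyd1-KO* hearts, where 11 genes summed to between 28.4 and 284.7 CPM against 753.6 to 1006 CPM in WT hearts. Of these 11 markers, edgeR called 3 lower, where 1.42% of all tested genes were, DESeq2 called 8, and 10 had an unadjusted *P* under 0.05. No gene of the lists for endothelial (9 genes), epicardial (5), smooth muscle (4), endoderm (6), neural and white blood cells was called by edgeR. DESeq2 called 3 of the endothelial genes, 2 of the epicardial, 1 of the smooth muscle and 1 of the neural ones. The epicardial sum was 137.2 to 254.6 CPM in *Smyd1-KO* hearts and 99.98 to 124.1 CPM in WT hearts.

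The genotypes were compared by edgeR's quasi-likelihood test with Benjamini-Hochberg adjustment over all tested genes, and the thresholds for a call were an adjusted *P* under 0.05 and a log2 fold change of 0.5 or more in either direction. By this test 0 of the 47 genes differed between *Smyd1-KO* and WT hearts, where 4.28% of all tested genes did, and 5.2% of the 10213 genes at least as abundant as the lowest of the 47. The log2 fold changes lay around 0, with 25 positive and 22 negative, a median of 0.015 and a range from -0.35 in *Ndufb2* to 0.78 in *Ndufv3*. Over all tested genes the median was -0.003. At an unadjusted *P* under 0.05, *Ndufv3* and *Ndufa7* were higher in *Smyd1-KO* hearts and *Ndufb2* was lower, so 3 of 47 genes were below that level against 25.1% of all tested genes. The same 3 genes were the ones in which the hearts of the 2 genotypes did not overlap, a pattern seen in 31.3% of all tested genes and in 35.9% of those at least as abundant as the lowest of the 47. DESeq2 called 1 of the 47 genes, *Ndufv3*, where it called 9.29% of the genes it tested.

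How large a difference these hearts leave room for is given by the 95% interval of each log2 fold change. In 33 of the 47 genes the whole interval lay between -0.5 and 0.5, so that a change as large as the fold threshold fell outside it. The count was 16 without WT heart 2, 19 without WT heart 1 and 21 without *Smyd1-KO* heart 2. It was 26 without each of *Smyd1-KO* heart 1, *Smyd1-KO* heart 3 and WT heart 3. With both *Smyd1-KO* heart 1 and WT heart 3 left out, a choice made after the data had been seen, it was 36. The count thus depended on which hearts were included. With all 6 hearts the interval lay within these limits in 30.9% of all tested genes, and in 55.8% of the equally abundant ones. The standard errors of the log2 fold changes ran from 0.104 in *Sdhc* to 0.454 in *Ndufs5*, with a median of 0.143. The plot of fold changes by complex shows that the intervals of all genes but 3 cross 0.

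**Figure D1:**
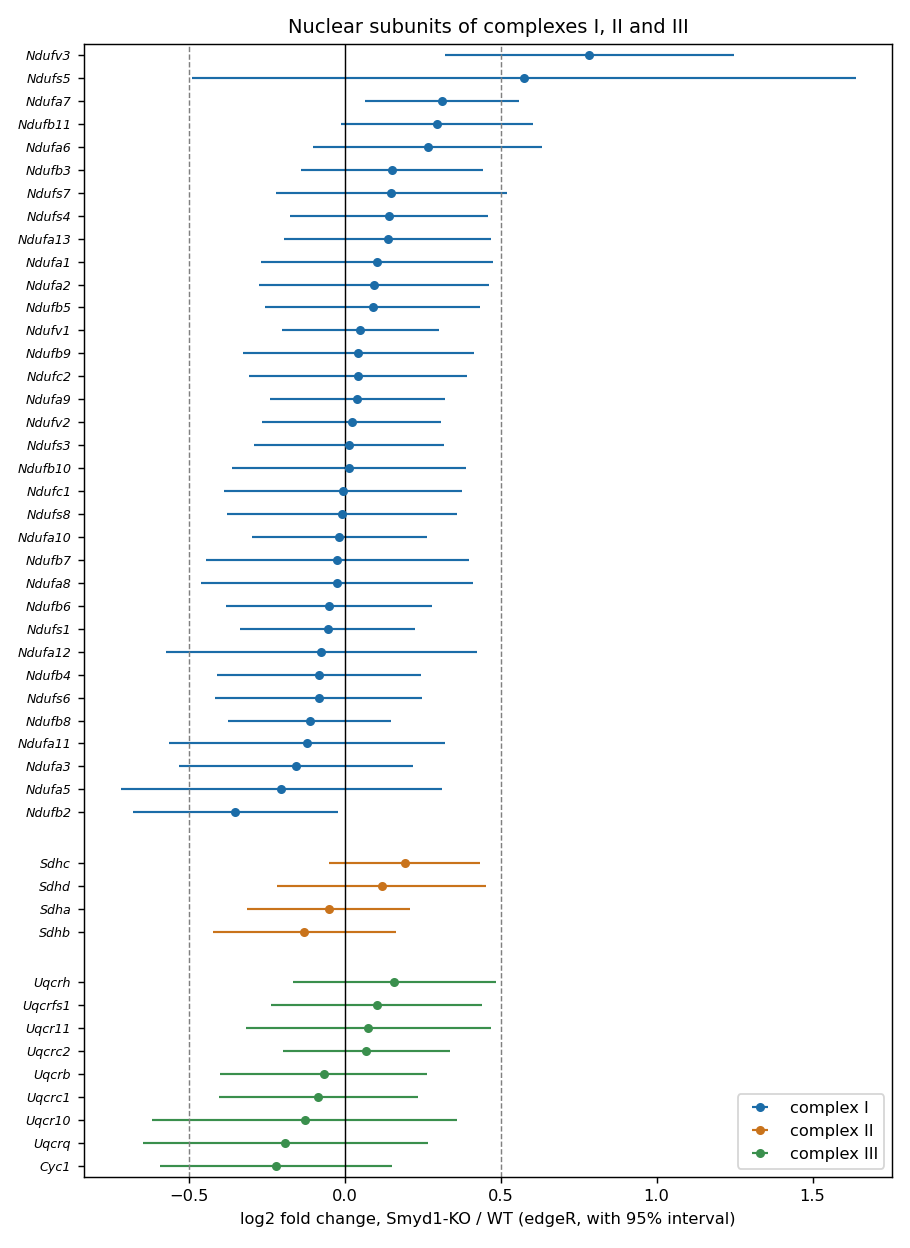
Log2 fold change of each gene between *Smyd1-KO* and WT hearts, with points for the edgeR estimate, lines for the 95% interval, colors for the complex and dashed lines at -0.5 and 0.5. *Ndufv3* and *Ndufa7* lie above 0 and *Ndufb2* below 0 with their whole intervals, and *Ndufs5* has the widest interval of the 47.

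In complex I, the core subunits encoded in the nucleus differed little between the genotypes. *Ndufv1*, which holds the flavin and binds NADH, measured 134.2, 159.1 and 156.4 CPM in *Smyd1-KO* hearts against 161.5, 138.4 and 134.3 CPM in WT hearts, and the 2 ranges overlapped for most of their width. Its log2 fold change was 0.05, with a 95% interval from -0.20 to 0.30. *Ndufs1*, the largest iron-sulfur subunit, measured 136.5, 173.5 and 158.4 CPM against 181.5, 157.0 and 147.7 CPM, again with the hearts of both genotypes interleaved (log2 fold change -0.05). *Ndufs7*, which holds the iron-sulfur cluster next to the ubiquinone site, measured 83.48, 102.7 and 109.3 CPM against 104.9, 89.69 and 71.68 CPM. Its log2 fold change of 0.15 was the highest of the 6 core genes, and its interval reached 0.52. It ran from 0.02 without WT heart 3 to 0.30 without WT heart 1. The others were the iron-sulfur subunits *Ndufv2* (0.02) and *Ndufs8* (-0.01) and *Ndufs3* (0.02), a core subunit without a cofactor near the base of the matrix arm. None of the 6 core genes had an unadjusted *P* under 0.05.

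Grouped by place in complex I, the 15 genes of the matrix arm had a median log2 fold change of 0.041, the 9 of the proximal membrane arm -0.006 and the 10 of the distal membrane arm -0.005. The 28 supernumerary genes had a median of 0.027 and the 6 core genes of 0.019. The 4 genes with the most divergent values were all supernumerary, and they are *Ndufv3*, *Ndufs5*, *Ndufa7* and *Ndufb2*. Without these 4, the other 43 genes had a median of 0.013 and a range from -0.22 to 0.30.

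*Ndufv3* encodes a supernumerary subunit that sits on the flavoprotein end of the matrix arm, next to the NADH site. It is the gene ENSMUSG00000024038 on chromosome 17 (GRCm38, 31520115 to 31531331, + strand), and it measured 71.51, 90.85 and 110.6 CPM in *Smyd1-KO* hearts against 65.18, 50.26 and 43.08 CPM in WT hearts. Every *Smyd1-KO* heart was above every WT heart, and *Smyd1-KO* heart 1 was separated from WT heart 1 by a small gap. The log2 fold change was 0.78 (SE 0.198, 95% interval 0.32 to 1.25), a level 72.2% higher that missed the threshold with edgeR (adjusted *P*=0.0656) and passed it with DESeq2 (adjusted *P*=0.00349). With *Smyd1-KO* heart 1 left out, the log2 fold change was 0.93 and edgeR called it (adjusted *P*=0.0278), and over the 6 fits that each leave out 1 heart it ran from 0.62 to 0.97 and was called in that 1 fit. *Ndufv1* and *Ndufv2*, the core subunits it adjoins, had log2 fold changes of 0.05 and 0.02, with intervals that include 0. The gene is known to give a longer and a shorter protein by alternative splicing, and counts per gene do not tell these apart.

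*Ndufa7*, another supernumerary subunit of the matrix arm, is also on chromosome 17 (33824572 to 33838317, + strand). It measured 59.56, 63.28 and 63.93 CPM in *Smyd1-KO* hearts against 57.69, 47.66 and 45.09 CPM in WT hearts. The 3 *Smyd1-KO* values were close together, and the highest WT heart reached almost to the lowest of them. The log2 fold change was 0.31 (95% interval 0.06 to 0.56), with an edgeR adjusted *P* of 0.126.

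*Ndufb2*, a small supernumerary subunit of the distal membrane arm, lies on chromosome 6 (39592574 to 39603382, + strand). It measured 6.952, 8.187 and 8.374 CPM in *Smyd1-KO* hearts against 9.836, 10.68 and 9.475 CPM in WT hearts. All *Smyd1-KO* hearts were below all WT hearts. Its log2 fold change came to -0.35 (95% interval -0.68 to -0.02), with an edgeR adjusted *P* of 0.176. Its last exon overlaps the annotated end of *Braf* on the other strand, over 146 bases. *Ndufb2* also shares 145 bases with the overlapping protein-coding gene *Gm42420* and 86 with the antisense gene *Gm16272*. Over the 6 hearts *Braf* held 25290 counts, *Gm42420* 4 and *Gm16272* 42, against 3195 for *Ndufb2*. The strand setting of the counting is not given in the sources used here, so reads in these overlaps may be assigned to either gene. *Braf* had a log2 fold change of -0.11 (edgeR adjusted *P*=0.591).

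**Figure D2:**
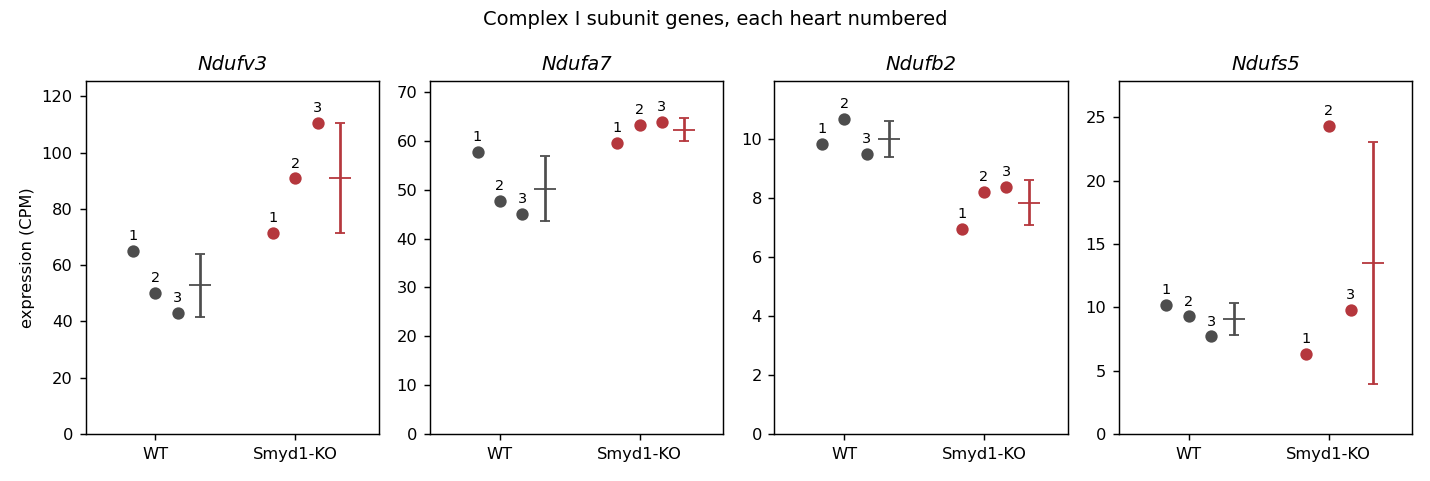
CPM of *Ndufv3*, *Ndufa7*, *Ndufb2* and *Ndufs5* in each heart on axes that start at 0, with numbered points for hearts and crosses with bars for the mean and SD of 3 hearts. The genotypes do not overlap in the first 3 genes, and in *Ndufs5* *Smyd1-KO* heart 2 alone, at 24.31 CPM, stands above the other 5 hearts.

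*Ndufs5*, a subunit on the intermembrane-space side of the membrane arm, was singled out after its values were seen. It measured 6.314, 24.31 and 9.81 CPM in *Smyd1-KO* hearts against 10.21, 9.278 and 7.703 CPM in WT hearts, so 1 *Smyd1-KO* heart was high and another was the lowest of all 6. The log2 fold change of 0.57 had an interval from -0.49 to 1.64 and an edgeR adjusted *P* of 0.472, and it turned to -0.17 when *Smyd1-KO* heart 2 was left out. The transcript of *Ndufs5* (chromosome 4, 123712710 to 123718202, - strand) has a near-identical processed pseudogene, *BC002163*, on chromosome 16 (42955631 to 42955949), which matches it at 99.4% of 319 aligned bases. The pseudogene held more counts than the gene, 5554 against 4014 over the 6 hearts. In 5 hearts *Ndufs5* took 33.0 to 36.4% of the counts on the pair, and in *Smyd1-KO* heart 2 it took 70.2%. Counts on *BC002163* were 614, 610 and 1133 in *Smyd1-KO* hearts and 1234, 1028 and 935 in WT hearts. The sum of both was 18.9, 34.6 and 29.7 CPM in *Smyd1-KO* hearts against 30.9, 25.5 and 21.7 CPM in WT hearts, and on the sum the ranges of the genotypes overlapped. How reads were divided between the pair is uncertain.

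**Figure D3:**
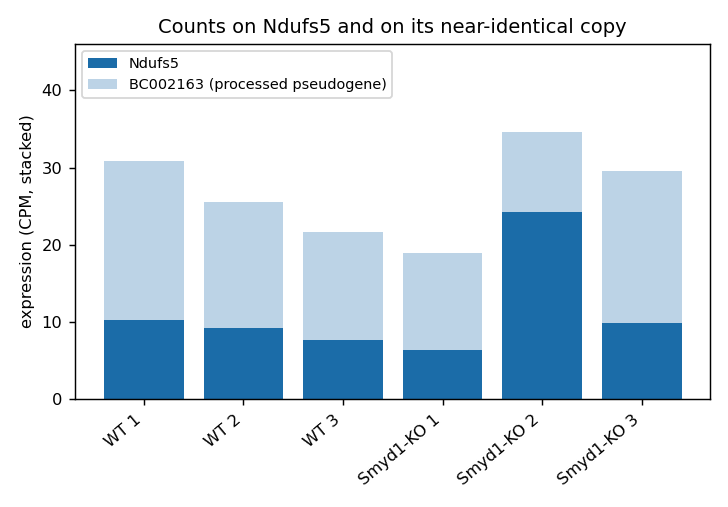
CPM counted on *Ndufs5* (dark) and on its pseudogene *BC002163* (light), stacked for each heart. The dark part is the smaller one in 5 hearts and the larger one in *Smyd1-KO* heart 2, where it is 70.2% of the bar.

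In all, 7 of the 47 genes have a near-identical copy elsewhere in the genome, defined as a transcript of another gene that matches over at least 75 bases at 97% identity or more. These are *Ndufa12*, *Ndufb4*, *Ndufc1*, *Ndufs3*, *Ndufs5*, *Uqcr11* and *Uqcrb*, and their values are uncertain to the extent that reads were shared. Apart from *Ndufs5*, the copies that are processed pseudogenes held far fewer counts than the gene, 2396 against 29595 for *Ndufa12* at most. *Ndufc1* matches the protein-coding gene *Ube2e1* over 112 bases at 98.2% identity, and *Ube2e1* held 13305 counts against 11886 for *Ndufc1*. The median log2 fold change was -0.006 over these 7 genes and 0.032 over the other 40. Separately, 10 of the 47 genes overlap another annotated gene at their own locus by the same measure. They are *Ndufa13*, *Ndufb2*, *Ndufb5*, *Ndufb6*, *Ndufb8*, *Ndufb9*, *Ndufb11*, *Ndufs1*, *Ndufs3* and *Uqcrc2*. How reads in these overlaps were assigned is uncertain.

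Complex II is the part of the chain that is encoded wholly in the nucleus, and its 4 genes stayed within narrow limits. *Sdha*, the flavoprotein that oxidizes succinate, was the most abundant of the 47 genes by CPM, with 313.1, 375.1 and 361.0 CPM in *Smyd1-KO* hearts against 401.3, 355.0 and 330.7 CPM in WT hearts. The hearts of the 2 genotypes were interleaved, and the log2 fold change was -0.05 (95% interval -0.31 to 0.21). *Sdhb*, which carries the iron-sulfur clusters, measured 121.7, 148.9 and 144.6 CPM against 174.8, 143.2 and 136.0 CPM, with the lowest log2 fold change of the complex (-0.13, interval -0.42 to 0.16), which ran from -0.20 without WT heart 3 to -0.0047 without WT heart 1. *Sdhc* and *Sdhd* anchor the enzyme in the membrane and form the ubiquinone site. *Sdhc* measured 111.6, 130.1 and 131.7 CPM against 121.1, 102.4 and 103.4 CPM, so that 2 of the 3 *Smyd1-KO* hearts were above every WT heart, and its log2 fold change of 0.19 was the highest of the complex (interval -0.05 to 0.44). *Sdhd* measured 116.5, 150.2 and 151.9 CPM against 148.1, 126.0 and 111.4 CPM (log2 fold change 0.12, interval -0.22 to 0.45). In all 4 genes the interval lay within -0.5 to 0.5.

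In complex III, *Cyc1*, which encodes cytochrome *c*1, had the lowest log2 fold change (-0.22, 95% interval -0.59 to 0.15), which ran from -0.34 without WT heart 3 to -0.10 without *Smyd1-KO* heart 1. It measured 169.5, 232.2 and 216.1 CPM in *Smyd1-KO* hearts against 275.9, 244.4 and 199.5 CPM in WT hearts. Its ranges overlapped, with WT heart 3 below 2 of the *Smyd1-KO* hearts. *Uqcrfs1*, the Rieske iron-sulfur protein, measured 108.0, 142.8 and 138.9 CPM against 140.2, 117.4 and 105.4 CPM (log2 fold change 0.10). The 2 large core proteins, *Uqcrc1* and *Uqcrc2*, had log2 fold changes of -0.08 and 0.07. *Uqcrh*, the hinge protein that aids the docking of cytochrome *c*, had the highest value of the complex (0.16, interval -0.17 to 0.49). None of the 9 genes had an unadjusted *P* under 0.05, and the median of the complex was -0.068. For *Cyc1*, *Uqcrq* and *Uqcr10* the interval reached below -0.5.

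Summed over its subunits, no complex was separated by genotype. The 34 complex I genes summed to 2157 ± 238 CPM in *Smyd1-KO* hearts and 2068 ± 345 CPM in WT hearts (SD, n = 3 each). Complex II summed to 752.1 ± 77.7 against 751.1 ± 84.6 CPM, and complex III to 1114 ± 140 against 1151 ± 188 CPM. Each of these differences is smaller than the SD within either genotype. The log2 ratios of the mean sums were 0.060, 0.002 and -0.047. They depended on the scaling, and were 0.014, -0.046 and -0.094 with library totals that leave out mitochondrial and haemoglobin genes.

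Per kilobase of exon, the complexes were ordered in the same way in both genotypes. Complex III genes had a median level of 88.8 CPM per kb in WT and 89.6 in *Smyd1-KO* hearts, complex II genes 77.7 and 73.3, and complex I genes 38.9 and 39.0. In complex I, *Ndufb2* was the lowest at 1.78 CPM per kb in WT and 1.39 in *Smyd1-KO* hearts, and *Ndufc2*, a supernumerary subunit of the membrane arm, was the highest in WT hearts. In *Smyd1-KO* hearts *Ndufc2* stood at 103 CPM per kb and *Ndufb11*, another supernumerary subunit of the membrane arm, was the highest at 118. In WT hearts the level ran from 33.5 for *Sdhc* to 104 for *Sdhd* within complex II, and from 45.3 for *Uqcrq* to 111 for *Cyc1* within complex III. These levels divide by all annotated exons of a gene. With the length of the principal transcript alone, the lowest gene of each complex was the same, and the highest was *Ndufb8* in complex I, *Sdhb* in complex II and again *Cyc1* in complex III, at 121, 133 and 158 CPM per kb in WT hearts.

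The 47 genes varied together from heart to heart within a genotype. Of the 3 WT hearts, heart 1 was the highest in 46 of the 47 genes and heart 3 the lowest in 45, where the same was true of 38.1% and 34.8% of all tested genes. Of the 3 *Smyd1-KO* hearts, heart 1 was the lowest in 46 genes, against 39.7% of all tested genes. On the log2 scale, relative to the mean of the WT hearts, the median gene stood at 0.26, -0.04 and -0.21 in WT hearts 1 to 3 and at -0.17, 0.10 and 0.14 in *Smyd1-KO* hearts 1 to 3. The highest WT heart therefore lay above, and the lowest WT heart below, the typical gene in every *Smyd1-KO* heart. Over all 6 hearts, WT heart 1 was the highest in 31 of the 47 genes, *Smyd1-KO* heart 1 was the lowest in 22 and WT heart 3 in 24. The nuclear genes of complexes IV and V, which are not among the 47, followed the same pattern. Their median log2 differences from the WT mean were 0.305, -0.023 and -0.274 (complex IV) and 0.244, -0.038 and -0.215 (complex V) in WT hearts 1 to 3. In *Smyd1-KO* hearts 1 to 3 they were -0.15, 0.154 and 0.216, and -0.209, 0.094 and 0.123. All these genes share the 6 libraries, so the agreement among them is not that of separate observations.

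**Figure D4:**
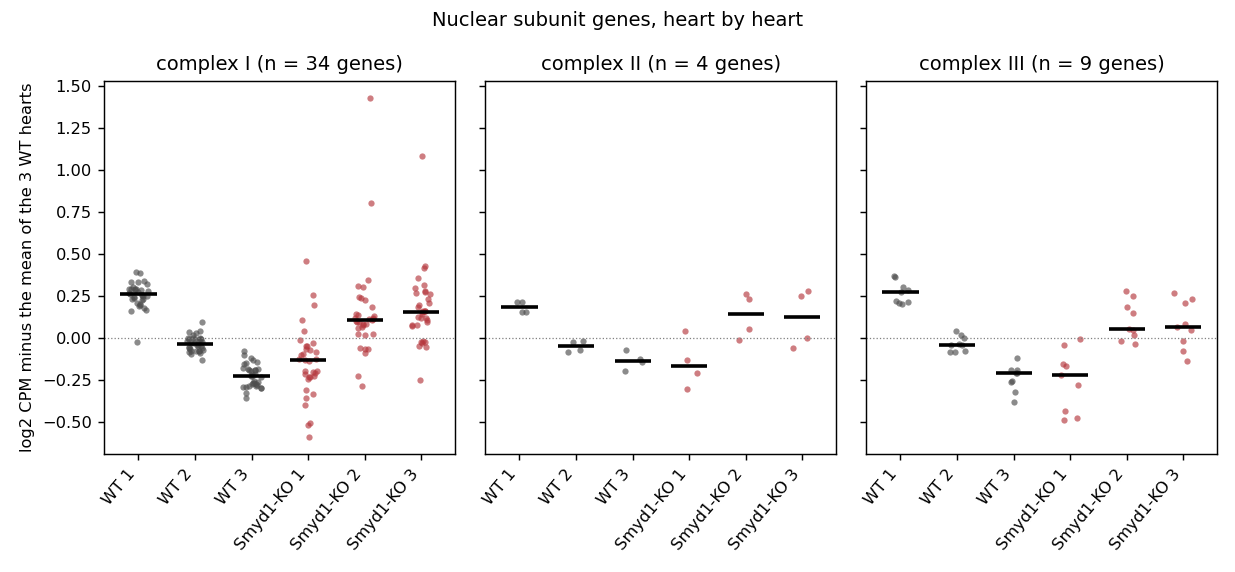
Log2 CPM of each gene minus its mean over the 3 WT hearts, by heart and complex, with a point per gene and a bar at the median. In all 3 complexes WT heart 1 is high, WT heart 3 and *Smyd1-KO* heart 1 are low, and *Smyd1-KO* hearts 2 and 3 lie between WT hearts 1 and 2 by their medians.

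The 2 hearts in which the 47 genes were low, *Smyd1-KO* heart 1 and WT heart 3, were also those with the low sums over the cardiomyocyte markers given above. The sum over the 47 genes was 3501, 4281 and 4286 CPM in the *Smyd1-KO* hearts against 4640, 3845 and 3426 CPM in the WT hearts. With both hearts left out, which was chosen after the data had been seen, 0 of the 47 genes were called, 1 had an unadjusted *P* under 0.05, and the median log2 fold change was -0.010, with 22 positive and 25 negative. The median depended more on single hearts. It was 0.169 without WT heart 1, with 44 of the 47 values positive, and -0.086 without WT heart 3, with 32 negative. Without *Smyd1-KO* heart 1 it was 0.114. The part of the cardiomyocyte markers in these values was not tested.

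**Figure D5:**
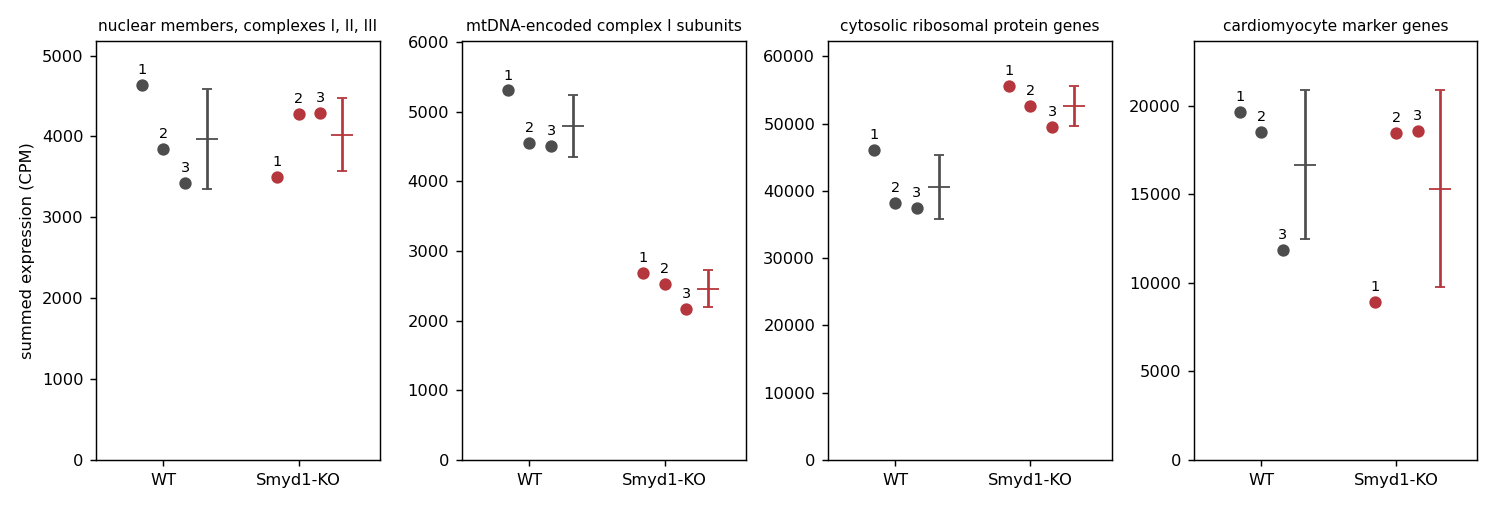
Summed CPM in each heart of the 47 nuclear genes, of the 7 complex I genes of mitochondrial DNA, of the cytosolic ribosomal protein genes and of the cardiomyocyte markers, on axes that start at 0, with numbered points for hearts and crosses with bars for mean and SD of 3 hearts. The genotypes overlap in the first and last panel and are apart in the other two.

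Promoter windows of 300 bases, from 250 before to 50 after the transcription start, were taken from RefSeq (GRCm38.p6) for 39 of the 47 genes, in 41 windows. The windows had a median GC content of 59.0%, against 52.7% over all 32851 windows of the table. Letters of motifs known from respiratory chain genes were searched on both strands. The NRF1 motif (GCGCA, any base, then GCGC) was found in 26.8% of the 41 windows and 4.6% of all windows, the YY1 motif AAGATGGC in 17.1% and 2.75%, and the GABP or ETS motif CCGGAAG in 19.5% and 8.86%. The SP1 motif GGGCGG was in 41.5% and 35.7%, the ERR motif TCAAGGTCA in 2.44% and 0.423%, and the hypoxia response core ACGTG in 22.0% and 19.6%. These counts describe letters, and no binding was measured. The first pair of windows below belong to the genes at the ends of the fold change range, and the other pair show the motifs, with matches to the NRF1, GABP or ETS, YY1 and ERR motifs in capitals. *Ndufv3* (chr17:31519865-31520164, + strand) and *Ndufb2* (chr6:39592315-39592614, + strand) held none of these 4 motifs. The SP1 motif and the hypoxia response core are not marked, and both occur in the window of *Ndufv3* and neither in that of *Ndufb2*. In *Ndufs6*, a supernumerary subunit of the matrix arm (chr13:73328433-73328732, - strand), the NRF1 match begins 16 bases before the start and the YY1 match lies after it. In *Sdhb* (chr4:140961021-140961320, + strand) the GABP or ETS match begins 6 bases after the start. All are written 5′ to 3′ on the strand of the gene.
Ndufv3: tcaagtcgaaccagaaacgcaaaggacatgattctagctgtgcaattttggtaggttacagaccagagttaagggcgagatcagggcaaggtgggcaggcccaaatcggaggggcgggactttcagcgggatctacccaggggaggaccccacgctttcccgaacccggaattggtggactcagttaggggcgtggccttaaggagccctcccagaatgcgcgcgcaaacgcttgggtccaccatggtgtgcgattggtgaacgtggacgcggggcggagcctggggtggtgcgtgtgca
Ndufb2: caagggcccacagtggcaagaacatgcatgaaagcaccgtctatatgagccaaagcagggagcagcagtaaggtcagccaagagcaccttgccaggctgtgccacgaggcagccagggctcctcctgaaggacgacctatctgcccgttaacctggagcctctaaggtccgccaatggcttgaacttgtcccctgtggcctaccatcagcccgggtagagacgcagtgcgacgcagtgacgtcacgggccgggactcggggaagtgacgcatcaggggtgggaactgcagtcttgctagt
Ndufs6: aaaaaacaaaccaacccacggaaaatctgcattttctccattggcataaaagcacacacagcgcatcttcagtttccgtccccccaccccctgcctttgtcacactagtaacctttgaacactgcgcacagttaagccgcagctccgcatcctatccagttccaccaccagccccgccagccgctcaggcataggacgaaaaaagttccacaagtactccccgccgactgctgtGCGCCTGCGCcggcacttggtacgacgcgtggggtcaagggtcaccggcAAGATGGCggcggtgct
Sdhb: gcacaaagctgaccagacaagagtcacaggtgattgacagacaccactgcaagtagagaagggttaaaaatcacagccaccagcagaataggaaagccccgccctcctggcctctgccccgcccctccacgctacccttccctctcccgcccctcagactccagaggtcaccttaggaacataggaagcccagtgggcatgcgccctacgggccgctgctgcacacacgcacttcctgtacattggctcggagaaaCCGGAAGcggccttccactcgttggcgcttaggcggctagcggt

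Most subunits of the same complexes that are encoded by mitochondrial DNA were lower in *Smyd1-KO* hearts. Of the 7 complex I genes of mitochondrial DNA, 5 were called lower in *Smyd1-KO* hearts and 0 higher, against 1.42% and 2.86% of all tested genes, and the median log2 fold change of the 7 was -0.917. In all 7 genes every *Smyd1-KO* heart was below every WT heart, which was so in 15.5% of all tested genes. *mt-Nd4*, a proton-pumping core subunit of the membrane arm, fell by 0.95 on the log2 scale, from 705.8, 649.9 and 652.0 CPM in WT hearts to 384.0, 342.1 and 313.2 CPM in *Smyd1-KO* hearts (edgeR adjusted *P*=0.00645). *mt-Nd1*, *mt-Nd2*, *mt-Nd5* and *mt-Nd6* fell by 1.04, 0.90, 0.93 and 0.88 on the same scale. *mt-Nd3* (-0.58) and *mt-Nd4l* (-0.92) did not pass the test with edgeR, and both were measured at under 4 CPM. DESeq2 called all 7 genes lower, where it called 9.29% of the genes it tested in either direction. *mt-Cytb*, the cytochrome *b* of complex III, fell by 0.96, from 2521, 2117 and 2035 CPM to 1216, 1169 and 1036 CPM (edgeR adjusted *P*=0.00961). The call of *mt-Nd4* was kept in all 6 fits that each leave out 1 heart. Without WT heart 2 the other 5 called genes had adjusted *P* values between 0.0502 and 0.0676, and without *Smyd1-KO* heart 2 those of *mt-Nd1*, *mt-Nd2* and *mt-Cytb* were between 0.0511 and 0.0549. Without WT heart 3, *mt-Nd1* and *mt-Nd2* were at 0.0554 and 0.0546.

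Within each heart, the summed CPM of the 7 mitochondrial complex I genes was 1.42, 1.12 and 0.931 times that of the 34 nuclear ones in *Smyd1-KO* hearts 1 to 3, and 2.17, 2.28 and 2.55 times in WT hearts 1 to 3. The 2 genotypes did not overlap in this ratio. The sums behind it were 2681, 2524 and 2164 CPM in *Smyd1-KO* hearts against 5308, 4558 and 4509 CPM in WT hearts for the mitochondrial genes, which were apart, and those of the nuclear genes overlapped. The difference between the nuclear and the mitochondrial genes was not itself tested. The lower red blood cell markers of the *Smyd1-KO* hearts moved in the same direction as the mitochondrial genes, and their part in it was not tested. Without mitochondrial and haemoglobin genes in the scaling, the median over the 47 nuclear genes was 0.014.

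Among other genes of the pathway, *Ndufab1*, the mitochondrial acyl carrier protein and also a complex I subunit, had a log2 fold change of -0.07, and *Ndufb1-ps* had one of 0.08. Neither is among the 47, and neither was called. Of 17 tested complex I assembly factors, edgeR called 1 lower and 0 higher, where 1.42% and 2.86% of all tested genes were. Their median was -0.083. At an unadjusted *P* under 0.05 with edgeR, 2 of them were lower, against 11.9% of all tested genes. In 3 of them all *Smyd1-KO* hearts lay below all WT hearts, against 15.5% of all tested genes. The called gene was *Ndufaf4*, which acts in the assembly of the part of complex I next to the ubiquinone site. It fell by 0.60 on the log2 scale (95% interval -0.80 to -0.39, edgeR adjusted *P*=0.0161), from 47.47, 44.29 and 44.96 CPM in WT hearts to 30.91, 31.99 and 27.56 CPM in *Smyd1-KO* hearts, with a clear gap between the genotypes. Its log2 fold change ran from -0.64 to -0.53 when each heart was left out in turn, and its adjusted *P* was 0.0517 without *Smyd1-KO* heart 2, and 0.0507, 0.0858 and 0.0717 without WT hearts 1, 2 and 3. The highest of the assembly factors was *Nubpl*, which delivers iron-sulfur clusters to complex I (0.18).

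None of the 4 assembly factors of complex II and none of the 6 of complex III was called by edgeR or had an unadjusted *P* under 0.05, and DESeq2 called none of them. Their log2 fold changes ran from -0.42 for *Sdhaf1* to 0.03 for *Sdhaf3* and from -0.21 for *Ttc19* to 0.34 for *Lyrm7*. The next complexes of the chain were close to the 47 genes in their values. The 12 nuclear genes of complex IV had a median log2 fold change of 0.041, from -0.10 for *Cox5a* to 0.21 for *Cox8a*, and the 15 of complex V, the ATP synthase, had one of 0.001, from -0.35 for *Atp5g1* to 0.36 for *Atp5g2*. By edgeR and by DESeq2, 0 genes of complexes IV and V were called, and *Atp5g2* alone had an unadjusted *P* under 0.05. *Cycs*, the somatic cytochrome *c* that carries electrons from complex III to complex IV, measured 127.4, 174.3 and 154.7 CPM in *Smyd1-KO* hearts against 261.6, 197.8 and 170.1 CPM in WT hearts, which overlapped (log2 fold change -0.46, edgeR adjusted *P*=0.167). *Ndufa4l2*, a paralogue of a respiratory chain subunit that is not itself among the 47, went from 2.115, 2.126 and 2.042 CPM in WT hearts to 34.02, 50.39 and 45.79 CPM in *Smyd1-KO* hearts (log2 fold change 4.37, edgeR adjusted *P*=0.000126).

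Cytosolic ribosomal protein genes served as another group of short, abundant transcripts, though their many pseudogenes make the counts of single genes uncertain. Of 78 tested, edgeR called 6 higher and 1 lower, where 2.86% and 1.42% of all tested genes were, and DESeq2 called 10 higher and 1 lower. By edgeR 63 had an unadjusted *P* under 0.05 in the higher direction, where 13.1% of all tested genes did, and their median log2 fold change was 0.383. Their sum was 55540, 52650 and 49560 CPM in *Smyd1-KO* hearts against 46060, 38160 and 37490 CPM in WT hearts, which did not overlap. *Rpl17* had the largest rise of the 6 (0.65), with *Rps18*, *Rps27*, *Rpl39*, *Rpl22* and *Rpl9* between 0.52 and 0.56, and *Rpl30* fell by 0.79. Over all 78 genes the log2 fold changes ran from -0.79 to 1.28, and the gene with the highest value was not called.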

How the data were processed

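The deposited table holds raw counts per Ensembl gene in 6 E9.5 hearts, 3 *Smyd1-KO* and 3 WT, made by the authors without normalization. Per the paper and the labels, poly A RNA was sequenced as paired-end reads of 75 bases and aligned with STAR to mm10, run through bcbio-nextgen. The counting tool, the annotation release and the strand setting are not given in the sources used here. A second table, of counts the authors divided by a size factor, was not used.

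Each column was matched to a heart by the sample titles, and 0 columns were left without one. Libraries were treated as individual hearts by their labels, and the RNA methods of the paper do not give the number of hearts per library. A figure legend of the paper gives a different number of replicates for each genotype than the 3 in the labels. Hearts of the same number are different embryos. Counts were tested in R 4.3.3 with edgeR 4.0.16 (filterByExpr, TMM, glmQLFit, glmQLFTest, genotype only) and, as an alternative, with DESeq2 1.42.0, the study's tool. Standard errors are the log2 fold change divided by the square root of F. Log2 values per heart carry a prior count of 2. Counting error alone sets no limit at these depths, and precision rests on 3 hearts per genotype. The edgeR steps were tested on simulated data, with the changed genes drawn from all tested genes. They called 55 of 96 genes changed 2-fold and 92 of 104 changed 4-fold, with 8 false calls. A 2-fold change can thus be missed with 3 hearts per genotype.

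Positions, exonic lengths and transcripts came from the GENCODE annotation of GRCm38, which held 54495 of the 54532 genes, and promoters from RefSeq. Copies were searched with BLAST+ 2.17.0. Summaries and plots were made in Python 3.11.15 with pandas 2.3.3 and matplotlib 3.10.9.

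The 47 genes and all lists were chosen with earlier results of these data known. Values are given for the core and catalytic subunits, every member called, at an unadjusted *P* under 0.05 or without overlap, the extremes of each complex by fold change and by level, and the called and extreme genes of the fixed lists. *Ndufs5* was added after its values were seen. The alternatives were RLE and upper-quartile normalization, scaling without mitochondrial and haemoglobin genes, no filter, at least 10 counts in every heart, no fold limit, the replicate number as a block, and each heart left out. Leaving out 2 hearts and the principal transcript lengths were added after the data had been seen. *Coa1*, listed as an assembly factor, was not found by symbol. Of the fixed lists, 1 gene is not reported here.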

Additional observations from a re-analysis of the deposited data

How the results depend on the processing

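DESeq2 called 1749 of the 18821 genes it tested and 1 of the 47 (*Ndufv3*). EdgeR called 830 of 19372 and 0 of the 47, and edgeR without a filter on low counts also called 1 of the 47. The cause was not tested. With RLE or upper-quartile normalization, scaling without mitochondrial and haemoglobin genes, or at least 10 counts in every heart, 0 of the 47 were called and their median log2 fold change was 0.014 to 0.019. With each heart left out in turn, edgeR called 97 to 1256 genes and 0 to 1 of the 47, and the number of the 47 whose interval lay within -0.5 to 0.5 was 16 to 26, against 33 with all hearts. The median log2 fold change of the 47 ran from -0.086 to 0.169 in these fits.

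The log2 fold changes of 9 named genes turned sign with 1 heart left out. The ranges over these fits were -0.0864 to 0.206 for *Ndufc2*, -0.134 to 0.0436 for *Ndufs1*, -0.0721 to 0.125 for *Ndufs3*, -0.166 to 0.914 for *Ndufs5*, -0.114 to 0.161 for *Ndufs8*, -0.0698 to 0.17 for *Ndufv2*, -0.11 to 0.0367 for *Sdha*, -0.18 to 0.033 for *Uqcrc1* and -0.335 to 0.0192 for *Uqcrq*. With the 2 hearts lowest in cardiomyocyte markers left out, *Ndufc2* was at -0.0162 and *Ndufv2* at -0.0324, and *Ndufaf4* missed the threshold (adjusted *P*=0.0543). In none of these fits did any of the 47 genes except *Ndufv3* pass the threshold.

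Hearts with the same replicate number did not deviate together. The correlations of their deviations from the genotype means were -0.216, -0.0538 and -0.182, against -0.156 to 0.286 between differently numbered hearts. With the replicate block, edgeR called 59 genes, of which 0 were among the 47, 14 of the 47 had an interval within -0.5 to 0.5, *Ndufs8* was at 8.1e-05, and the mitochondrial genes (adjusted *P* 0.0561 to 0.0691) and *Ndufaf4* (0.107) were no longer called, with fold changes of the same direction. The loss of residual degrees of freedom comes with the block by construction.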
